A study of Mus musculus with 4 samples.

Results

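Voltage-gated calcium and sodium channel subunit genes were followed through 4 hippocampal RNA libraries. Members were chosen as genes whose listed symbol began with Cacna, Cacnb or Cacng, or with Scn and a digit, a rule that used no measured value. Described are 38 genes among the 18492 listed in any library, 26 of calcium channels and 12 of sodium channels. Each library came from the hippocampus of C57BL/6 mice at 6 months of age: 1 wild type (WT), 1 Ogg1-/- (Ogg1 KO), 1 Mutyh-/- (Mutyh KO) and 1 with both genes disrupted (DKO). Ogg1 encodes the glycosylase that removes 8-oxoguanine from DNA, and Mutyh the one that removes adenine mispaired with it. How many animals each library pools, their sex and how the alleles were disrupted are not given in the sources used here. Since each genotype has a single library, differences could not be set against replicates: ratios compare libraries, not genotypes, and no tests were run.

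A voltage-gated calcium channel is built around a single large pore protein (alpha1, the Cacna1 genes) that opens when the membrane depolarises. Its partners are a cytoplasmic beta subunit (Cacnb), which brings the pore to the surface, and an extracellular alpha2delta subunit (Cacna2d), the target of gabapentin. The Cacng genes were named after the gamma subunit of the muscle channel, but most of the brain members are transmembrane AMPA receptor regulatory proteins (TARPs) that carry glutamate receptors to the synapse. Voltage-gated sodium channels pair a pore protein (alpha) with single-pass beta subunits that adjust gating and adhere to neighbouring cells. In hippocampal neurons sodium channels start and carry the action potential, while calcium channels release transmitter, shape bursts of firing and signal to the nucleus.

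Where 4 values follow each other they are in the order WT, Ogg1 KO, Mutyh KO, DKO. Depth was alike, at 17.02 to 18.20 megareads of unique reads in genes. Ogg1 had 94 reads in WT against 130 (labelled Ogg1 KO), 81 (Mutyh KO) and 103 (DKO), so its read total ran against the label in the library labelled Ogg1 KO, and was not below WT in DKO either. Library names below are those of the labels, and each direction drawn from the Ogg1 KO or DKO library carries this limit. The coverage of Ogg1 (the percent of the gene's length under reads) was 86.7%, 47.2%, 81.5% and 46.4% in that order. Unlike the read total, it was lower in both libraries labelled as lacking Ogg1. Mutyh had 39, 35, 15 and 20 reads and a coverage of 55.9%, 57.1%, 18.4% and 27.7%, both lower in the libraries labelled as lacking Mutyh. Xist, the RNA of the inactive X chromosome, had 10307 reads in Mutyh KO against 14 to 29 elsewhere, and Ddx3y, on the Y chromosome, had 289 against 724 to 884. Each comparison that uses the Mutyh KO library carries this limit, since sex and genotype cannot be told apart there. All 14 choroid plexus markers were at least 25% above WT in every knockout library. Their summed RPKM, a read count scaled for gene length and library size, was 265 in WT against 2955 (Ogg1 KO), 2914 (Mutyh KO) and 1486 (DKO). Markers of excitatory neurons (2548 to 2820 RPKM) and dentate granule cells (97.2 to 122) were present in every library. Those of CA1 to CA3 pyramidal cells were too, with sums of 194, 166, 164 and 196 RPKM. Those of meningeal fibroblasts summed to 76.7, 146, 197 and 143 RPKM. Other tissues set single libraries apart. Pituitary markers summed to 0.565, 1.41, 0.613 and 20.1 RPKM (Gh with 4, 7, 1 and 256 reads), high in DKO alone. Heart and skeletal muscle markers summed to 20.6, 6.02, 22.9 and 21.7 RPKM (Actc1 with 128, 0, 150 and 144 reads), present in WT, Mutyh KO and DKO and low in Ogg1 KO. The part of these tissues in the values of each library below was not tested. In RNA of whole tissue, fewer cells of a type and less RNA per cell cannot be told apart.

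Of the 38 members, 29 had a mean of at least 1 RPKM over the libraries and were compared, 21 for calcium and 8 for sodium. Members spanned a wide range of expression, from Cacng8 at a mean of 87.1 RPKM, above 95.1% of the 13186 genes past that limit, down to genes with single reads. In order of level, Cacng8, Cacnb3 and Cacng7 led the calcium genes with means of 87.1, 85.5 and 73.5 RPKM, and Scn3b, Scn8a and Scn2b led the sodium genes with 71.2, 62.3 and 61.5 RPKM. Neighbours in these orders, such as Cacng8 and Cacnb3 or Scn8a and Scn2b, overlapped in their ranges over the libraries.

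**Figure D1:**
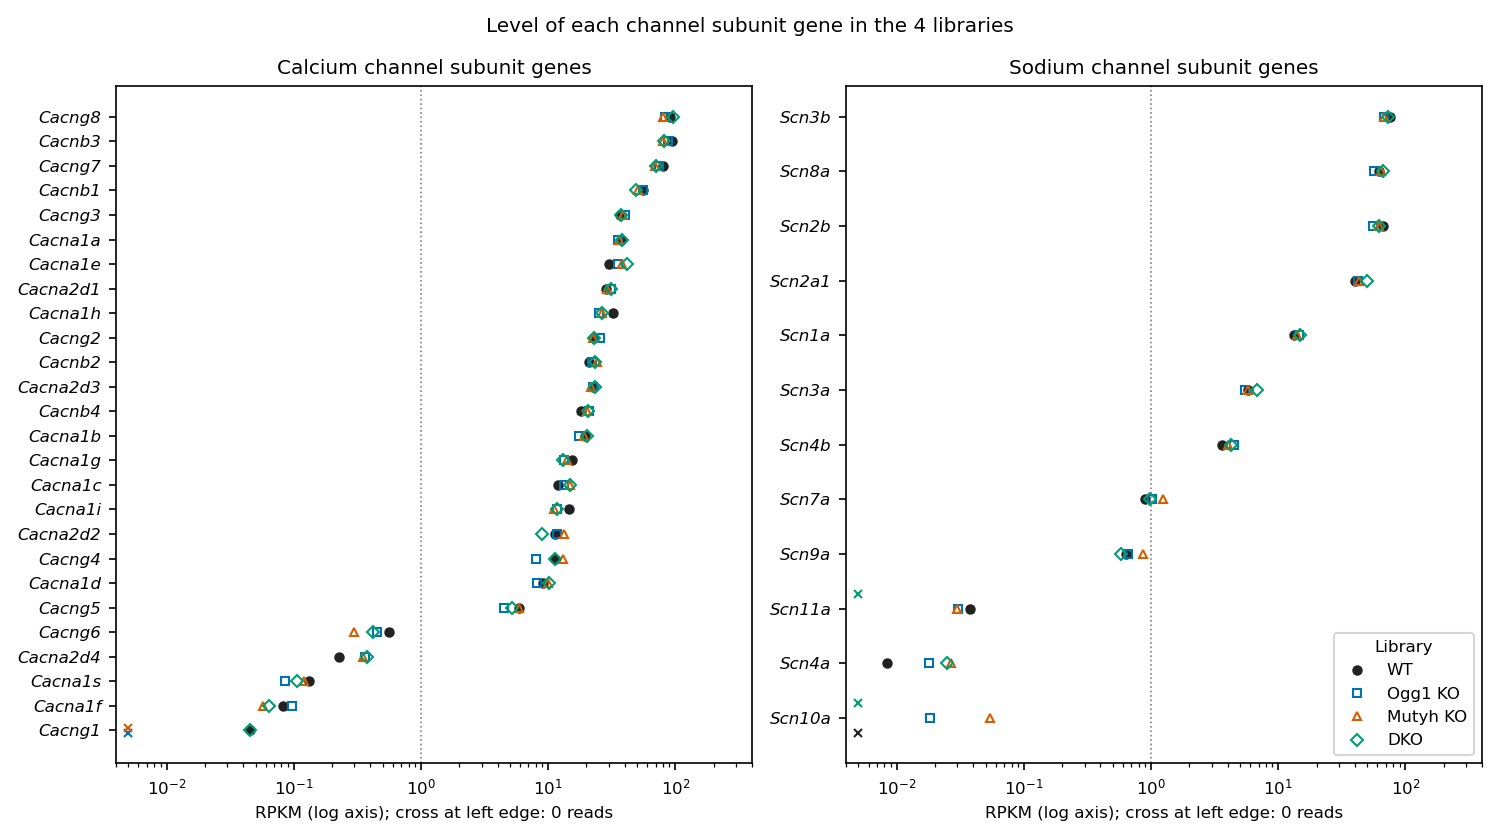
RPKM (log axis) of the 26 calcium (left) and 12 sodium (right) channel genes, ordered by mean, with 1 symbol per library, crosses for 0 reads and a dotted line at 1 RPKM. The symbols of a gene mostly lie together; Cacng4 spreads furthest among the members compared, 1.62-fold between Mutyh KO and Ogg1 KO.

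The sodium beta genes Scn2b and Scn4b are neighbours in the genome, yet their mean levels were 61.5 and 4.10 RPKM. The 250 bases before their RefSeq starts are shown because they set this pair side by side, together with those of Cacna1i and Cacna2d2, a pair of calcium genes that differed between libraries. They come from RefSeq on GRCm38.p6, plus strand, at chr9:45117626-45117875, chr9:45138374-45138623, chr15:80286988-80287237 and chr9:107399630-107399879, with every CG dinucleotide in capitals.
Scn2b: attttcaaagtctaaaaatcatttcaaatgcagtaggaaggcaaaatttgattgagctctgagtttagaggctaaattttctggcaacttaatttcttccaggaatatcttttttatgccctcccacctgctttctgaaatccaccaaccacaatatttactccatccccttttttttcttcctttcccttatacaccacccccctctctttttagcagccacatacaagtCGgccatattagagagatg
Scn4b: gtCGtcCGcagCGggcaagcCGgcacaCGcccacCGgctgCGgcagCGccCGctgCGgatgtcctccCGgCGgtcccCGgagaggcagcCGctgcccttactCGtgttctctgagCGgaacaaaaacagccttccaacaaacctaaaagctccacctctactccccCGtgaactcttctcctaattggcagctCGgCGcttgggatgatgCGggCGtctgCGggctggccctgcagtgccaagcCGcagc
Cacna1i: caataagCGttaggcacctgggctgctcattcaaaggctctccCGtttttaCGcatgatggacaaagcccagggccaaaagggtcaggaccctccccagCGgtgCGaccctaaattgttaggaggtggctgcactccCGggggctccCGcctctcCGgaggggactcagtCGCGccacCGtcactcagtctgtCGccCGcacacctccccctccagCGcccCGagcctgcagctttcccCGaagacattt
Cacna2d2: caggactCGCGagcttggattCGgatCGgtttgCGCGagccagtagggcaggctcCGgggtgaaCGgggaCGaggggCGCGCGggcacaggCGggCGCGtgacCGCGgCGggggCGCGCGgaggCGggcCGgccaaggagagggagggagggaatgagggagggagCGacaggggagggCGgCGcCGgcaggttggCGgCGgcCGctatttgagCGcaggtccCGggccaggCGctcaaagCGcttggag

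These windows hold 1 (Scn2b), 23 (Scn4b), 16 (Cacna1i) and 34 (Cacna2d2) CG dinucleotides, so of the adjacent pair the gene with the higher level has the CG-poor window. Promoter entries were matched by gene ID for 30 of the 38 members; those not matched were Cacna1a, Cacna1g, Cacna1h, Cacna2d4, Cacng1, Cacng4, Scn3a and Scn3b. Using the first listed start, the 23 matched members past the 1 RPKM limit had a median of 12 CG dinucleotides (0 to 37), and the 7 below it a median of 5 (3 to 9). Over all genes the medians were 16 for 10442 genes past the limit and 4 for 3840 listed below it. The GC box letters GGGCGG, searched on both strands, were in 10 of the 23 windows, in 60.2% of those of genes past the limit and in 32.9% of all 27025 promoters. TATAAA was in 1 of the 23 (Cacna1d), in 6.02% of those of genes past the limit and in 13.0% of all promoters. These matches describe letters in a window, which may not be the start used in hippocampus.

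The 9 genes below the limit are mostly best known from other tissues. The L-type pores of skeletal muscle (Cacna1s) and retina (Cacna1f) had 9 to 15 and 6 to 10 reads per library. The muscle gamma subunit gene Cacng1 had 1 read in WT and in DKO and 0 in the others, where 0 reads allow up to 0.144 RPKM (3 reads) in Ogg1 KO and 0.143 in Mutyh KO. Scn4a, the skeletal muscle sodium channel, had 1 to 3 reads per library. The sensory neuron channels Scn10a and Scn11a had 0 to 6 and 0 to 4 reads. Scn9a, best known from pain-sensing neurons, had 112 reads in WT against 109 (Ogg1 KO), 145 (Mutyh KO) and 103 (DKO), or 0.577 to 0.862 RPKM. Cacna2d4, of photoreceptors, and Cacng6 lay at 0.228 to 0.379 and 0.298 to 0.564 RPKM. No ratio is read from these genes.

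The Cav2 pores carry the calcium entry that releases transmitter at presynaptic terminals, and they had the highest summed level of the 3 calcium pore groups, 87.4 RPKM in WT against 88.5 (Ogg1 KO), 93.6 (Mutyh KO) and 99.7 (DKO). Cacna1a, the P/Q-type pore, had 5412, 4806, 4945 and 5497 reads in the same order, or 37.7, 35.6, 36.4 and 38.1 RPKM. Cacna1b, the N-type pore, had 19.4, 17.4, 19.2 and 20.2 RPKM. Cacna1a stayed within 1.07-fold between its highest and lowest library, the narrowest range of all members compared.

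Cacna1e, the R-type pore found at spines and terminals, differed most among the Cav2 genes. It had 6977 reads in WT against 7660 (Ogg1 KO), 8278 (Mutyh KO) and 9575 (DKO), or 30.3, 35.4, 38.0 and 41.4 RPKM. WT was the lowest library and DKO the highest, with the single knockouts between them. Against WT the ratio of reads per library total was 1.17 in Ogg1 KO (95% counting interval 1.13 to 1.21), 1.254 in Mutyh KO (1.21 to 1.29) and 1.37 in DKO (1.32 to 1.41). Such intervals cover counting error only, not differences between animals. On the scale used for all genes, log2 of RPKM plus 1, the DKO difference was 0.44, and 3.03% of genes lay above it. Its share of the summed Cav2 level was 34.7% in WT against 40.0% to 41.5% in the other libraries.

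Reads also covered Cacna1e differently. In WT they covered 93.7% of its 12697 bases and left 800 bases bare, while 75, 39 and 3 bases were bare in Ogg1 KO, Mutyh KO and DKO. The range of 6.28 percentage points was matched or passed by 4.15% of the 3830 genes with at least 1000 reads in every library. Cacnb3 was the other member with a range of at least 5 points (92.6% in DKO to 98.3% in Mutyh KO), so 2 of 22 members passed that size, beside 6.61% of all such genes. Cacna1a was covered to 99.8% in Ogg1 KO and to 95.7% to 96.1% elsewhere, a range of 4.10 points. The tables do not show which stretch of a gene was bare.

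L-type (Cav1) pores couple depolarisation to gene transcription in neurons, and Cacna1c is their main hippocampal member. Cacna1c had 1808 reads in WT against 1898 (Ogg1 KO), 2104 (Mutyh KO) and 2264 (DKO), or 12.02, 13.4, 14.8 and 15.0 RPKM. WT was again the lowest library; the DKO ratio was 1.246 (1.17 to 1.33) and the Mutyh KO ratio 1.23 (1.15 to 1.31). Cacna1d, which opens at less depolarised potentials, had 9.09, 8.18, 9.96 and 10.2 RPKM, lowest in Ogg1 KO. For both genes the Mutyh-null libraries were above the Mutyh-intact ones. On the log2 RPKM plus 1 scale their DKO differences from WT were 0.30 and 0.15.

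T-type (Cav3) pores open near the resting potential and support burst firing. All 3 of their genes were highest in WT. Among the members compared, so were Cacnb1, Cacnb3, Cacng5, Cacng7, Scn2b and Scn3b. The share of all genes highest in WT was not computed, so this is not read as a result about the T-type genes. Their summed level was 62.3 RPKM in WT against 50.1 (Ogg1 KO), 51.9 (Mutyh KO) and 51.0 (DKO), a ratio of 0.804, 0.834 and 0.819. Cacna1h had 4838, 3509, 3764 and 3954 reads, or 32.4, 25.0, 26.6 and 26.4 RPKM, with ratios to WT of 0.772 (0.739 to 0.806), 0.822 (0.788 to 0.858) and 0.813 (0.780 to 0.849). Cacna1i had 2586, 1949, 1879 and 2083 reads, or 14.5, 11.6, 11.1 and 11.6 RPKM, with ratios of 0.802 (0.756 to 0.851), 0.768 (0.723 to 0.815) and 0.802 (0.756 to 0.850).

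Cacna1g, the third T-type gene, had 15.3 RPKM in WT against 13.4 (Ogg1 KO), 14.1 (Mutyh KO) and 13.0 (DKO), and its ratios to WT were 0.874 (0.821 to 0.929), 0.920 (0.866 to 0.978) and 0.847 (0.797 to 0.901). Among the knockout libraries, DKO over Ogg1 KO was 1.05 (1.01 to 1.10) for Cacna1h, 0.9995 (0.939 to 1.06) for Cacna1i and 0.970 (0.910 to 1.03) for Cacna1g. DKO over Mutyh KO was 0.990 (0.946 to 1.03), 1.04 (0.981 to 1.11) and 0.921 (0.865 to 0.981), so for Cacna1g it was as far from 1 as Mutyh KO over WT. The 3 comparisons with WT share 1 WT library, so its own deviations enter all of them. On the log2 RPKM plus 1 scale 2.65% of genes lay below Cacna1h in Ogg1 KO, and 1.32% lay below Cacna1i in Mutyh KO. Within the group, proportions held: Cacna1h made up 50.0% to 52.1% of the summed T-type level in every library.

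Markers of cells and regions rich in T-type channels differed in unlike directions over the same libraries. Interneuron markers (Gad1, Gad2, Slc32a1, Pvalb, Sst and Vip) summed to 532 RPKM in WT against 510 (Ogg1 KO), 486 (Mutyh KO) and 437 (DKO). In DKO, Sst and Slc32a1 were at least 20% lower than WT and Vip at least 25% higher (1.28, 1.05 to 1.56). In Ogg1 KO, Slc32a1 was 0.701-fold WT (0.653 to 0.751) and Pvalb 1.64-fold (1.41 to 1.91). In Mutyh KO, 0 of the 6 were that much lower and 0 that much higher. Thalamus markers summed to 28.5, 30.2, 32.8 and 37.1 RPKM, with 5 of 6 higher in DKO and 0 of 6 lower. None of these 12 markers was at 0 in any library. Their part in the T-type differences was not tested.

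**Figure D2:**
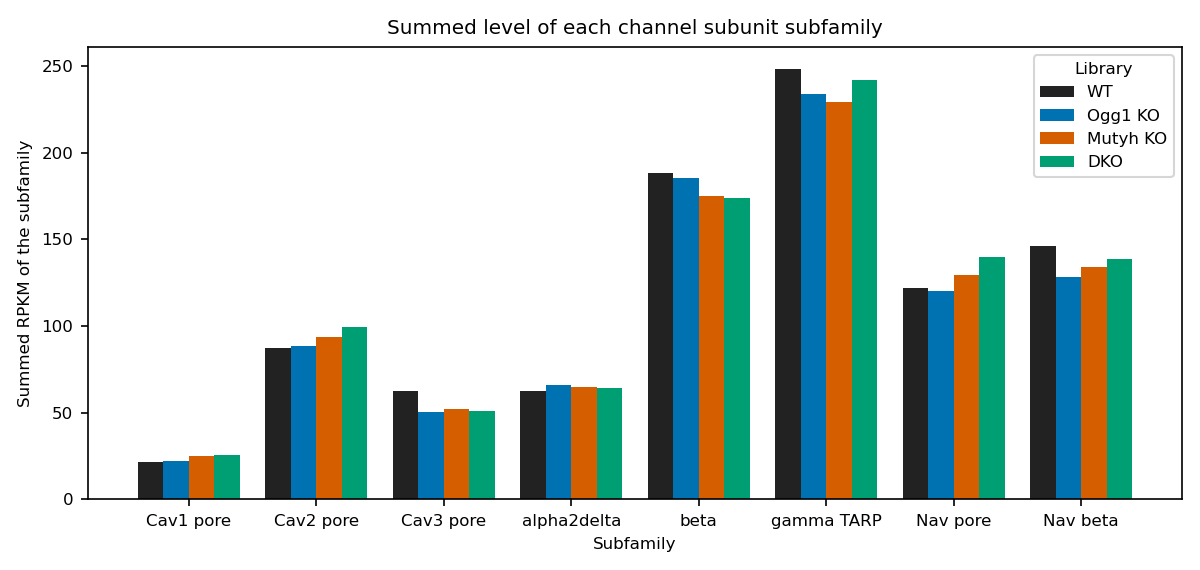
Summed RPKM of each subunit group (bars, axis from 0) in the 4 libraries, without replicates or error bars. The Cav3 bar is tallest in WT (62.3 against 50.1 to 51.9), the Cav1, Cav2 and Nav pore bars are tallest in DKO, and the TARP group is the highest in every library; the Nav beta bars sum Scn2b, Scn3b and Scn4b.

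Among alpha2delta genes, Cacna2d1 led with 28.4 RPKM in WT against 31.3 (Ogg1 KO), 29.2 (Mutyh KO) and 31.3 (DKO). Cacna2d3 lay between 21.9 and 23.4 RPKM, and 0 of its 5 intervals between library pairs excluded a ratio of 1. Cacna2d2, prominent in inhibitory neurons and cerebellum, had 1143, 1111, 1270 and 904 reads, or 11.4, 11.8, 13.4 and 8.97 RPKM. DKO was the lowest library for Cacna2d2, below each of the others. Its DKO ratio was 0.787 to WT (0.721 to 0.860), 0.761 to Ogg1 KO (0.696 to 0.832) and 0.670 to Mutyh KO (0.615 to 0.731). In the last comparison 1.43% of genes lay lower. The summed interneuron level given above was also lowest in DKO, as were Gad1, Gad2 and Sst of its 6 markers, but Vip was highest there; their part in the Cacna2d2 value was not tested.

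Beta subunit genes differed little. Cacnb3 had 4806 reads in WT against 4201 (Ogg1 KO), 3919 (Mutyh KO) and 4170 (DKO), or 93.5, 87.0, 80.6 and 80.7 RPKM, highest in WT. Cacnb1 had 55.8, 55.5, 50.5 and 49.5 RPKM and was lower in both Mutyh-null libraries. In RefSeq the span of Cacnb1 overlaps the ribosomal protein gene Rpl19, as those of Cacna1c (Dcp1b), Cacna1d (Chdh and Dcp1a), Cacna1h (Tpsg1) and Cacna2d3 (Lrtm1) overlap other genes. These are overlaps of whole spans, introns included, and whether exons overlap was not examined. Only where exons do overlap would reads of such pairs be hard to tell apart without strand. Cacnb2 (21.1 to 24.1 RPKM) and Cacnb4 (18.2 to 21.0 RPKM) were lowest in WT instead. Cacnb4, whose loss gives the lethargic mouse, had ratios to WT of 1.15, 1.10 and 1.12. All 12 ratios of beta genes to WT lay between 0.862 and 1.15.

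The TARP genes gave the highest calcium-family total, 230 to 249 RPKM. Cacng8, the principal TARP of hippocampal pyramidal cells, had 2270 reads in WT against 1934 (Ogg1 KO), 1896 (Mutyh KO) and 2388 (DKO), or 90.8, 82.3, 80.1 and 95.1 RPKM. Both single knockouts lay below WT and DKO, with DKO over Mutyh KO at 1.19 (1.12 to 1.26). Cacng7 had 80.7, 73.9, 69.2 and 70.3 RPKM, and Cacng3 36.9, 39.9, 38.9 and 37.3. Cacng2, which encodes stargazin, had 23.1, 25.7, 22.5 and 22.9 RPKM.

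The TARP genes of lowest level differed more between libraries. Cacng4 had 203, 134, 219 and 202 reads, or 11.4, 7.9995, 13.0 and 11.3 RPKM, with Ogg1 KO alone low. Its Ogg1 KO ratio to WT was 0.703 (0.561 to 0.878), and DKO over Ogg1 KO was 1.41 (1.13 to 1.77), so the low value was absent from the other Ogg1-null library. Cacng5 had 405, 290, 381 and 354 reads, or 5.93, 4.52, 5.89 and 5.16 RPKM. Its Ogg1 KO ratio to WT was 0.762 (0.653 to 0.888) and its DKO ratio 0.870 (0.752 to 1.01). Cacng4 and Cacng5 are adjacent genes, and Cacng1 lies beside them. Markers of oligodendrocyte precursors, which also express Cacng4, summed to 27.2, 24.5, 24.2 and 25.7 RPKM, with none at 0. In Ogg1 KO, Gpr17 was 0.792-fold WT (0.727 to 0.862), Cspg4 0.803-fold and Pdgfra 1.14-fold; their part was not tested.

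Among sodium channel pores, Scn8a and Scn2a1 together made up most of the summed level in every library. Scn8a, the channel of the axon initial segment and nodes, had 12640 reads in WT against 10808 (Ogg1 KO), 12476 (Mutyh KO) and 13699 (DKO), the most of any member, or 61.8, 56.2, 64.4 and 66.6 RPKM. Ogg1 KO was lowest, with a ratio of 0.910 (0.887 to 0.934), and DKO over Ogg1 KO was 1.19 (1.16 to 1.22). Scn2a1 (listed as Scn2a in RefSeq) had 6267, 6243, 6397 and 7896 reads, or 39.8, 42.2, 42.9 and 49.9 RPKM. DKO stood above the other libraries, at 1.254-fold WT (1.21 to 1.30), 1.18-fold Ogg1 KO (1.14 to 1.22) and 1.16-fold Mutyh KO (1.12 to 1.20).

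Scn1a, the pore that drives fast-spiking interneurons and whose loss causes Dravet syndrome, had 13.2 RPKM in WT against 14.4 (Ogg1 KO), 14.0 (Mutyh KO) and 14.8 (DKO). Its highest and lowest libraries differed 1.13-fold. Scn3a, mainly an embryonic channel, had 5.80, 5.48, 5.81 and 6.83 RPKM, with DKO highest as for Scn2a1 and a DKO ratio to WT of 1.18 (1.08 to 1.28). Scn3a and Scn2a1 are adjacent in the genome, and Scn1a, Scn9a and Scn7a form a run nearby on the same chromosome. Scn7a, a salt-sensing relative found in glia, had 118, 127, 157 and 132 reads, or 0.888, 1.02, 1.249 and 0.989 RPKM, with a ratio to WT of 1.41 (1.10 to 1.80) in Mutyh KO. It passed the 1 RPKM limit at a mean of 1.04 (0.965 without Mutyh KO, its highest library). These neighbours differed widely in level, with 39.8 to 49.9 RPKM over the libraries for Scn2a1 against 0.577 to 0.862 for Scn9a.

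Sodium channel beta genes ranged widely in level. Scn3b, which helps deliver pores to the surface, had 6260, 5251, 5300 and 6021 reads, or 76.1, 67.9, 68.1 and 72.8 RPKM. WT was highest, and both single knockouts lay below DKO, with ratios to WT of 0.893 (0.860 to 0.926) and 0.895 (0.862 to 0.928). Scn4b, which gives the blocking particle of resurgent sodium current, had 278, 326, 292 and 330 reads, or 3.62, 4.51, 4.01 and 4.27 RPKM, lowest in WT. Its ratio in Ogg1 KO was 1.248 (1.06 to 1.47).

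Scn2b, whose product is linked to the pore by a disulfide bond, had 5495, 4335, 4833 and 5129 reads, or 66.5, 55.8, 61.8 and 61.8 RPKM. WT was highest and Ogg1 KO lowest, at a ratio of 0.840 (0.807 to 0.874).

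Counted together, few members differed by the size used for all genes, 0.32 in either direction on the log2 RPKM plus 1 scale. Since 1 is added to each level, this size asks for a larger ratio of a low gene than of a high one, and on the plain ratio it is always more than 25% higher or 20% lower. Members that pass those percentages on the plain ratio but not this size are named below with it. In the library labelled Ogg1 KO against WT, 0 of 21 calcium genes were higher and 3 were lower (Cacng4, Cacna1h and Cacng5), where 6.87% of the 13186 genes were higher and 3.57% lower. None of the 8 sodium genes passed that size in any of the 5 comparisons; on the plain ratio Scn2a1 in DKO over WT (1.254) and Scn7a in Mutyh KO over WT (1.41) and in DKO over Mutyh KO (0.792, 0.624 to 1.005) did. The median log2 difference was -0.08 for calcium and 0.01 for sodium genes, beside 0.02 for all genes. In Mutyh KO against WT, 1 calcium gene was lower (Cacna1i) and 0 were higher, against 1.92% and 8.24% of all genes; Cacna1e just missed the size, at a plain ratio of 1.254. The medians were -0.02 for calcium, 0.07 for sodium and 0.01 for all genes.

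In DKO against WT, Cacna1e was higher, the 1 calcium gene past that size, where 5.87% of all genes were higher and 2.55% lower. Cacna2d2 just missed it, at a plain ratio of 0.787. The medians were 0.02 for calcium, 0.13 for sodium and -0.0035 for all genes. DKO against Ogg1 KO set Cacng4 higher and Cacna2d2 lower, beside 3.66% of genes higher and 4.88% lower. In DKO against Mutyh KO, Cacna2d2 was lower and 0 members higher, beside 4.14% and 1.22% of all genes. All 8 of these differences also had counting intervals that excluded a ratio of 1. Intervals excluded 1 for many smaller differences too, since most members carry over 1000 reads. In all they did so for 16 of 21 calcium and 6 of 8 sodium genes in Ogg1 KO against WT. In DKO against Mutyh KO it was 6 and 4. The share of all genes with such intervals was not computed, so these counts are not read as a result about the members.

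**Figure D3:**
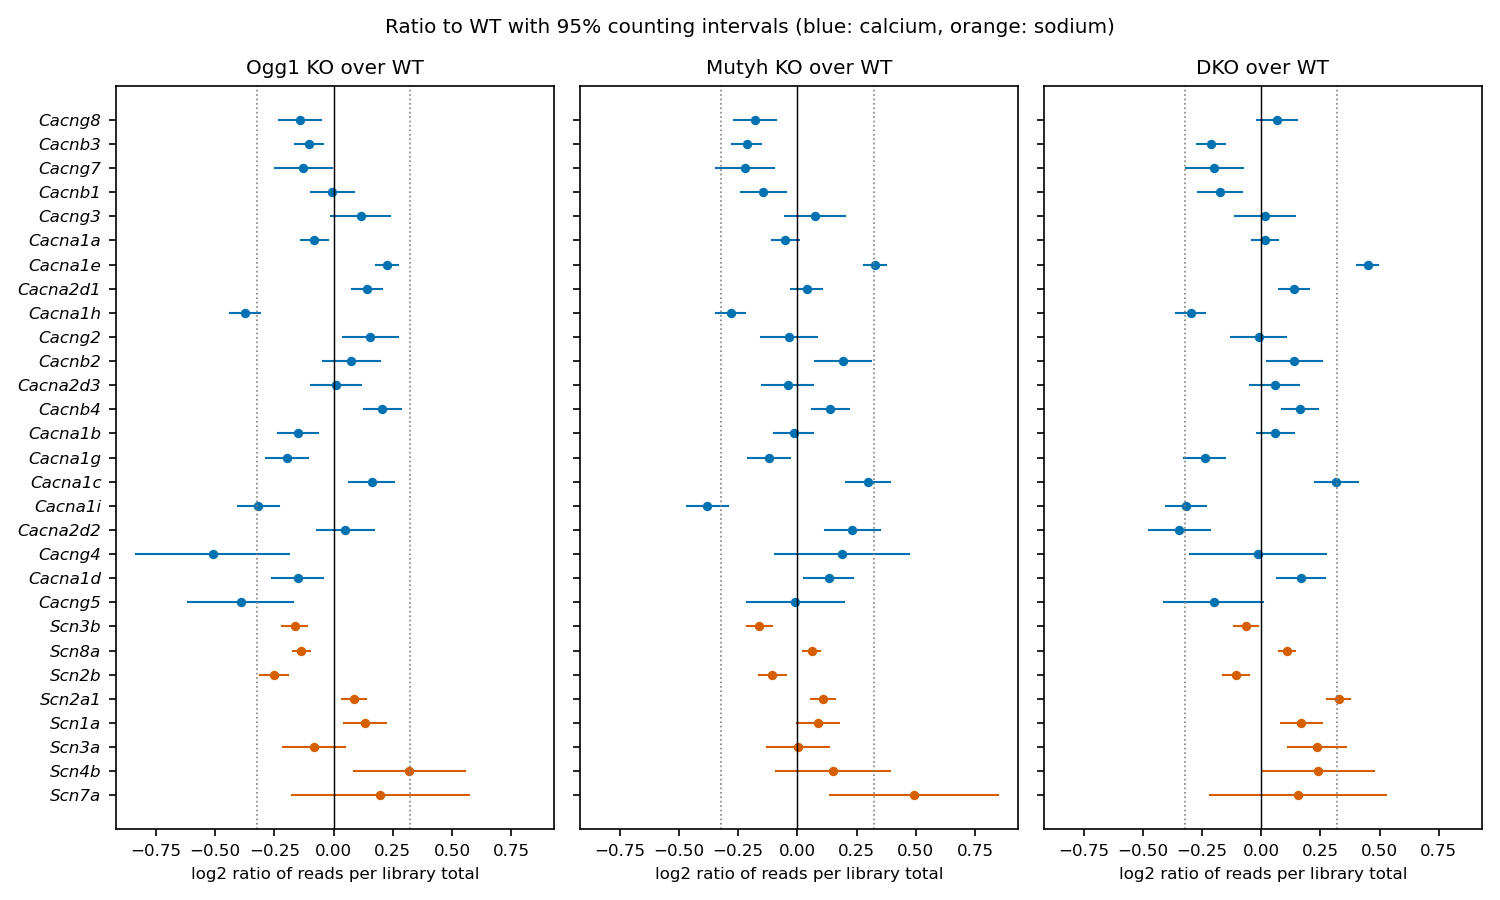
Log2 ratio of reads per library total to WT for the 29 members compared (points, with 95% counting intervals as lines; blue calcium, orange sodium), with dotted lines at a plain ratio 25% higher and 20% lower; counts in the text use RPKM plus 1, which draws low genes toward 0. Most points lie between the dotted lines, and Cacna1e lies to the right of the upper one in DKO at 1.37-fold.

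Setting the Ogg1-null pair (Ogg1 KO and DKO) against the Ogg1-intact pair (WT and Mutyh KO), the RPKM values did not overlap for 3 calcium genes that were higher (Cacna2d1, Cacna2d3 and Cacnb4) and 4 that were lower (Cacna1g, Cacna1h, Cacng4 and Cacng5). Cacng4 is among them although DKO and WT differ by 1 read, 202 against 203. Among 8 sodium genes 2 were higher (Scn1a and Scn4b) and 1 was lower (Scn2b). The rule asks for no minimum gap: Scn2b had 61.77 RPKM in DKO against 61.79 in Mutyh KO. Cacna2d3 had 22.7 in Ogg1 KO against 22.5 in WT. Over all genes 13.3% were higher and 14.4% lower by the same rule. For the Mutyh-null pair (Mutyh KO and DKO) against the intact pair, 4 calcium genes were higher (Cacna1c, Cacna1d, Cacna1e and Cacnb2) and 5 lower (Cacna1i, Cacnb1, Cacnb3, Cacng2 and Cacng7). Gaps were again narrow for Cacna1i, with 11.638 RPKM in DKO against 11.643 in Ogg1 KO, and for Cacng2, with 22.9 in DKO against 23.1 in WT. Sodium genes gave 3 higher (Scn2a1, Scn3a and Scn8a) and 0 lower, beside 18.3% and 19.6% of all genes. With 2 libraries against 2, an exact permutation test cannot reach 0.05, and none was run.

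For several members the loss of a gene went with opposite directions in the 2 backgrounds. Ogg1 loss was read as Ogg1 KO over WT with Mutyh intact and as DKO over Mutyh KO without it, and Mutyh loss likewise. Directions were opposite, with both counting intervals excluding a ratio of 1, in 4 of 29 members for Ogg1 loss (Cacna1a, Cacng8, Scn3b and Scn8a), beside 7.85% of all genes. For Mutyh loss there were 5 (Cacna1h, Cacna2d2, Cacng8, Scn2b and Scn3b), beside 7.57% of all genes. Counting intervals narrow with depth: of genes with at least 1000 reads in every library, 14.8% showed the pattern for Ogg1 loss and 14.7% for Mutyh loss, beside 4 of 22 members for each. Apart from Cacna2d2 and Cacna1h, each of these members stayed within 20% of WT in every library.

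**Figure D4:**
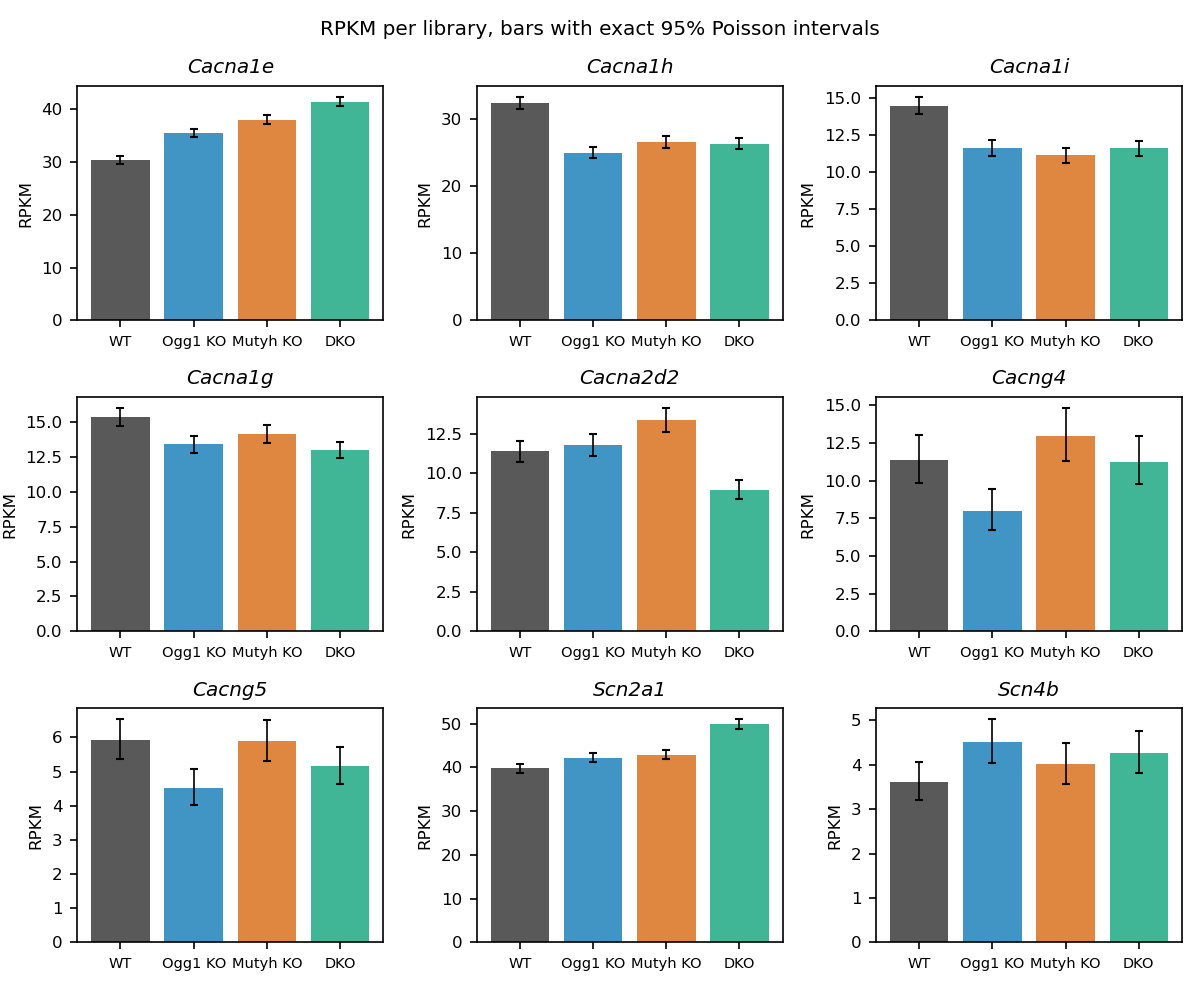
RPKM in each library (bars from 0, with exact 95% Poisson intervals for counting error, 1 library each) for 9 members, each on its own axis. Cacna1e is lowest in WT at 30.3 RPKM, Cacna1h and Cacna1i are highest there at 32.4 and 14.5, and Cacna2d2 is lowest in DKO at 8.97.

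Genes whose products work with these channels were counted in the same way. The sodium list also holds Nalcn, Unc79 and Unc80 of the separate sodium leak channel. By the same size, 1.22% to 8.24% of all genes passed per comparison and direction, so counts this small are not read as a result about the lists. Of the 19 genes on the sodium list, 1 was higher and 1 lower by that size, on RPKM plus 1, in Ogg1 KO against WT. These were Fgf13, a fibroblast growth factor homologue that binds the pore's tail (82.1 RPKM in WT against 105 (Ogg1 KO), 79.8 (Mutyh KO) and 85.0 (DKO)), and Sptbn4, the spectrin of the axon initial segment (39.7, 30.3, 33.7 and 34.6 RPKM). Mutyh KO and DKO each had 1 higher and 0 lower, Unc80, a subunit of the sodium leak channel (27.0, 33.7, 34.6 and 36.7 RPKM), which at a plain ratio of 1.251 just missed the size in Ogg1 KO. Rangrf, at a low 2.81 to 3.60 RPKM, had a plain ratio of 0.793 (0.526 to 1.19) for Mutyh KO over WT and 0.780 (0.521 to 1.16) for DKO over WT. Ank3, the ankyrin that anchors sodium channels, had 47.8, 48.9, 53.4 and 54.3 RPKM.

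Of 14 calcium channel partners past the limit, 1 was lower in Ogg1 KO (Dpysl2, which binds the N-type pore, with 85.2, 61.8, 74.4 and 86.1 RPKM), 1 was lower in Mutyh KO (Cabp1, a calcium-binding protein, with 41.7, 43.5, 33.0 and 36.0 RPKM) and 0 passed in DKO against WT. The RIM gene Rims1, which ties Cav2 channels to release sites, had 33.6, 36.3, 31.6 and 37.6 RPKM. In DKO against Ogg1 KO, 2 calcium partners were higher (Dpysl2 and Akap5) and 1 lower (Stac2), and 1 sodium partner was lower (Cntn1), while 0 of either list passed against Mutyh KO. None of the 10 AMPA receptor subunits and further auxiliaries, the partners of the TARPs, passed that size in any of the 5 comparisons. Per comparison and direction, 1.22% to 8.24% of all genes passed, so 0 of 10 is not read as a result about this list. Cnih2, a cornichon that joins AMPA receptors, had 368 RPKM in WT and 311, 300.4 and 313 in the others. Among these 10 genes the median log2 difference from WT was -0.12 (Ogg1 KO), -0.06 (Mutyh KO) and -0.05 (DKO).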

How the data were processed

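RNA was measured in 4 hippocampal libraries, 1 per genotype. Per the file headers, the authors deposited a count of unique reads per gene, the gene length, the percent coverage of that length and an RPKM value. The build was mm9, per the submitters' processing notes; the aligner, counting program, annotation, strand and handling of reads shared by paralogs are not given in the sources used here. Header totals equalled the summed reads, so genes not listed were taken as 0. Computed here (Python 3.11.15, numpy 2.4.6, pandas 2.3.3, scipy 1.17.1) were ratios of reads per library total with exact conditional 95% intervals, and log2 ratios of RPKM plus a pseudocount of 1 for the 13186 genes with a mean of at least 1 RPKM. Values are given for the highest member of each subunit group, for those past 0.32 in either direction on that log2 scale in any of 5 comparisons, and for members of other roles. No count model was fitted, since no genotype has a second library. The code was tested on simulated data. Of 40 genes that match the rule, 2 are not reported here. Members and lists were chosen with earlier results of these data known. Other scalings, pseudocounts, filters and size limits were tried.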

Additional observations from a re-analysis of the deposited data

Results flagged for a closer look

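In 7 members the same gene loss went with opposite directions in the 2 backgrounds, each ratio with a counting interval that excluded 1. The difference between backgrounds was not tested, since there are no replicates. Among genes with at least 1000 reads in every library the pattern was about as common (14.8% for Ogg1 loss and 14.7% for Mutyh loss) as among such members, 4 of 22 for each. For Ogg1 loss, the ratio of the fold without Mutyh to that with it was 1.11 for Cacna1a, 1.14 for Scn8a, 1.31 for Cacng8 and 1.20 for Scn3b, each lower on loss in the intact background and higher in the null one. For Mutyh loss, Cacna2d2 was 1.17-fold with Ogg1 intact and 0.761-fold without it, a ratio of 0.648 (0.576 to 0.730). The ratio was 1.28 for Cacna1h, 1.19 for Scn2b, 1.31 for Cacng8 and 1.20 for Scn3b, lower first and higher second. For any gene this ratio is the same number for Ogg1 loss and for Mutyh loss, since both use the same 4 libraries. The repeated values of Cacng8 and Scn3b are therefore not a second observation.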

How the results depend on the processing

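All ratios of members moved by less than their counting intervals under 3 other scalings, which moved the libraries by at most 0.035 on the log2 scale. Counts past the size limit were small and moved with the settings. At a limit of 1.5-fold, 0 calcium and 0 sodium genes passed in any of the 5 comparisons. With a pseudocount of 0.1 RPKM, calcium genes past the limit were 2 in DKO and 2 in Mutyh KO against WT, and sodium genes 1 and 1. Calcium genes in DKO were also 2 by TMM or median-of-ratios size factors. Without ribosomal RNA and choroid plexus genes in the total, 2 calcium genes passed in Mutyh KO and 1 sodium gene in DKO.

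Some medians near 0 turned sign. The sodium median of Ogg1 KO against WT was -0.102 with the filter at 5 RPKM and -0.0174 by size factors. Other sodium medians moved to 0.190 (5 RPKM) and 0.0231 (no filter) in DKO against Ogg1 KO, 0.0237 (no filter) in DKO against Mutyh KO and 0.0493 (no filter) in DKO against WT. In Mutyh KO against WT they were 0.0311 (5 RPKM), 0.0410 (TMM) and 0.0370 (size factors). Calcium medians moved to 0.0213 (DKO against Ogg1 KO) and, with its sign turned, -0.0051 (DKO against WT) with no filter, to -0.0448 by TMM in Mutyh KO against WT, and by size factors to -0.0487 there, 0.0446 in DKO against Mutyh KO and -0.105 in Ogg1 KO against WT. Fewer or more genes enter when the filter moves. The other settings were rescalings, which shift every log2 ratio of a comparison by nearly the same amount. Relative to WT, size factors scaled Ogg1 KO by 0.0259 on the log2 scale, and TMM scaled Mutyh KO by 0.0306, which lowers their ratios to WT. No paired analysis was possible because each genotype has 1 library and the labels carry no replicate numbers.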
